A study of Mus musculus with 6 samples.

Results

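Mitochondrial ribosomal proteins are the nuclear-encoded proteins that build the ribosome inside mitochondria. Their transcripts were examined in C2C12 myotubes kept in insulin, against untreated myotubes. A gene was taken as a member when its symbol in the array annotation began with Mrpl (large subunit) or Mrps (small subunit) followed by a number, and only probe sets with exactly 1 symbol were used. The rule found 74 of 20416 genes, 46 of the large and 28 of the small subunit, read by 435 probe sets with a median of 5 per gene. The rule rests on names alone.

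C2C12 is a mouse myoblast line whose cells fuse into multinucleate muscle fibres, called myotubes, once serum is lowered. The 3 insulin cultures received 100 nM insulin for 48 h, given in the labels as a way to make the cells insulin resistant, and the 3 control cultures received none. Both groups were of the same line, had been grown in 10% fetal bovine serum and then fused in 2% horse serum, and were used between days 4 and 7 of differentiation. The samples are given as biological replicates, but all came from 1 cell line, and p-values measure the spread between its cultures.

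The mitochondrial ribosome makes the few proteins encoded by mitochondrial DNA, which are core parts of the respiratory chain and of ATP synthase. Its RNAs come from the mitochondrial genome, whereas its proteins are made in the cytosol, imported and assembled inside the organelle. It is descended from a bacterial ribosome, and its proteins fall into homologues of bacterial ribosomal proteins and proteins that occur only in mitochondria. The small subunit binds and decodes the messenger RNA, and the large subunit joins the amino acids and releases the chain through an exit tunnel at the inner membrane. Skeletal muscle relies heavily on the proteins made there.

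Each value was a log2 level made by the authors with RMA, and a gene's level was the median over its probe sets. Array medians lay between 8.79 and 8.82, and correlations between arrays over all tested genes lay between 0.9797 and 0.9955. Without detection calls no gene can be called absent, and precision is limited by having 3 arrays a group. Control 1 stood apart in both directions. It had the lowest of the 6 levels for 27.8% of all tested genes, against 9.65% to 17.9% on each of the others. It also had the highest for 23.7%, against 10.9% to 17.6% on each of the others. All 18 markers of differentiated myotubes passed the filter on low levels. With insulin 7 of them fell (38.9%) and none rose, against 6.35% and 9.56% of all tested genes. The mean level of the 18 markers was 12.46, 12.44 and 12.43 on the insulin arrays, against 12.84, 12.73 and 12.61 on the control arrays. Of 15 markers of undifferentiated, cycling myoblasts, 8 rose (53.3%) and 1 fell (6.67%). Their mean level was 10.76, 10.81 and 10.77 on insulin arrays, against 10.51, 10.55 and 10.50 on control arrays. Neither group of arrays overlapped the other in these 2 means. The myoblast mean joins opposite changes, from -1.135 for Id3, the marker that fell (limma adjusted p = 0.00011), to 1.266 for Ccnd1. Of the 15 changes 11 were positive. Of the markers of other cells, 3 of 6 for adipocytes, 1 of 6 for macrophages and 2 of 5 for endothelial cells passed the level filter and none of these rose or fell, while 7 of 8 for fibroblasts passed it, 1 of which rose and 1 fell.

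The comparison of insulin with control cultures asked which mitochondrial ribosomal protein transcripts differed after chronic insulin. The genes Mrps18b, Mrpl47, Mrpl40 and Mrpl4 rose with insulin, by 1.16-fold to 1.36-fold, and no member fell. The remaining 70 members did not pass the test (limma, Benjamini-Hochberg adjusted p under 0.05 over 14291 tested genes). All 74 members passed the filter on low levels, with means over the 6 arrays from 7.67 to 13.06. The lowest was Mrpl33, whose median over 8 probe sets fell on weak ones. Its change was 0.207 by that median (limma adjusted p = 0.119). With its brightest probe set, at a mean of 13.56, it was -0.024 (limma adjusted p = 0.825). By the median it enters the counts given below of larger changes, of unadjusted p and of insulin arrays wholly above controls. The 4 rises are 5.41% of the members, against 15.9% of all tested genes called (9.56% higher and 6.35% lower), so the share of members called was not above the background. In bulk RNA, fewer cells of a type and less RNA per cell cannot be told apart, and the part of the myotube and myoblast markers in these results was not tested.

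Mrps18b encodes 1 of 3 mammalian relatives of the bacterial protein S18 and belongs to the small subunit. Its log2 level was 10.36, 10.59 and 10.56 on the insulin arrays, against 10.04, 10.04 and 10.09 on the control arrays. Every insulin array lay above every control array, and the controls lay close together. The mean was 10.51 ± 0.12 with insulin and 10.06 ± 0.03 in controls (SD, n = 3 each), a change of 0.45 ± 0.08 (SE) on the log2 scale, or 1.36-fold, with a limma adjusted p of 0.00809. Mrps18b kept its call under each of the 17 alternative settings tried.

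Mrpl47, a homologue of a bacterial protein beside the mouth of the exit tunnel, had log2 levels of 10.50, 10.69 and 10.76 with insulin, against 10.20, 10.21 and 10.24 in controls. Again the groups did not overlap and the spread lay mainly among the insulin arrays. The change was 0.43 ± 0.08 (SE) on the log2 scale, 1.35-fold, with a limma adjusted p of 0.0107. Without insulin replicate 2 its limma adjusted p was 0.051.

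Mrpl40, a protein found only in mitochondrial ribosomes and placed at the central protuberance that faces the small subunit, had log2 levels of 11.50, 11.54 and 11.48 with insulin, against 11.08, 11.19 and 11.25 in controls. Here the insulin arrays were the close ones and the controls were spread below them. The change was 0.34 ± 0.07 (SE) on the log2 scale, 1.26-fold, with a limma adjusted p of 0.0155. The call was lost without insulin replicate 1, 2 or 3 and without control replicate 2, at limma adjusted p-values of 0.0542, 0.067, 0.0522 and 0.0531, and with the brightest probe set alone at 0.626.

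Mrpl4, whose bacterial homologue lines the exit tunnel, had log2 levels of 11.04, 11.05 and 11.06 with insulin, against 10.81, 10.87 and 10.82 in controls. This was the smallest of the 4 rises, 0.22 ± 0.06 (SE) or 1.16-fold, with a limma adjusted p of 0.0429. Both groups were tight in these medians, but the median fell between different probe sets on different arrays. Mrpl4 passed under 3 of the 17 alternatives. With the probe set mean in place of their median its change was 0.085 (limma adjusted p = 0.234). With each probe set centred before the median it was 0.125 (limma adjusted p = 0.0804). Leaving out any 1 of the 6 arrays also ended the call, with limma adjusted p-values between 0.0721 and 0.128.

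Promoter sequences are shown for the genes that rose and have one in RefSeq, and for both relatives of Mrps18b, Mrps18a and Mrps18c, which did not pass. The windows run from 250 bases before to 50 after the gene start in assembly GRCm38.p6, 5′ to 3′ on the gene's strand, with motif matches in capitals.
Mrps18b promoter, chr17:35916391-35916690 (minus strand): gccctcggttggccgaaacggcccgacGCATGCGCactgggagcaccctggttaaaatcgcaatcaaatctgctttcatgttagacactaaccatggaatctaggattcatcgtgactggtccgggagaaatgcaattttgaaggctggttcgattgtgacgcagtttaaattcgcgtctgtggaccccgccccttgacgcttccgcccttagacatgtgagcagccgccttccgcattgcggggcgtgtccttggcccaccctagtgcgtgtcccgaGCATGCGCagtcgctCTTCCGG
Mrps18a promoter, chr17:46110754-46111053 (plus strand): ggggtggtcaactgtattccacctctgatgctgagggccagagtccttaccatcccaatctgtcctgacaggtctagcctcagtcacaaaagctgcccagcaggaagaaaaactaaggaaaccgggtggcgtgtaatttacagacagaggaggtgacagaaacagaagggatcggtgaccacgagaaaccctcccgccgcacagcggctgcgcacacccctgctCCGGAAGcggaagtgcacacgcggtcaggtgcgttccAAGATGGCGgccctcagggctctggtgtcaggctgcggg
Mrps18c promoter, chr5:100798509-100798808 (plus strand): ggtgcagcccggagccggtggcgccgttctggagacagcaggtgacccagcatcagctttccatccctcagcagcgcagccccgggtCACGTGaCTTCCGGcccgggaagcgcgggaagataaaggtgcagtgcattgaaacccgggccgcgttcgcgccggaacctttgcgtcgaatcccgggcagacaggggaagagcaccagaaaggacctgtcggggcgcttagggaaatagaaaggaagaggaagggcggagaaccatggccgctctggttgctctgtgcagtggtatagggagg
Mrpl47 promoter, chr3:32736706-32737005 (minus strand): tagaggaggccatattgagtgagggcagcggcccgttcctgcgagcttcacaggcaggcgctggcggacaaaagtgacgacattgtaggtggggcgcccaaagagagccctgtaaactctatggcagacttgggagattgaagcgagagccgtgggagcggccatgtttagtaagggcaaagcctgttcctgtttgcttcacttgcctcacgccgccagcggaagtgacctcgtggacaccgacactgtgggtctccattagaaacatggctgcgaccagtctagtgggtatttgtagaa
Mrpl40 promoter, chr16:18876588-18876887 (minus strand): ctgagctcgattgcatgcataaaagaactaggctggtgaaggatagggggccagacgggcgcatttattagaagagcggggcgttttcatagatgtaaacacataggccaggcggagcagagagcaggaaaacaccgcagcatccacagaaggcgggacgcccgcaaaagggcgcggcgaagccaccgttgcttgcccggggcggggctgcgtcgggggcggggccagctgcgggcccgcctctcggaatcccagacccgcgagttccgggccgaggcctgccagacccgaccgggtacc

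The motifs searched, on both strands and with exact letters, were the ETS family core CCGGAAG that GABPA binds, the NRF1 core GCATGCGC, the YY1 core AAGATGGCG and the E-box CACGTG that Myc and related factors bind. NRF1, GABPA and YY1 are known regulators of nuclear genes for mitochondrial proteins. The Mrps18b window held 1 ETS core and 2 NRF1 cores, that of Mrps18a 1 ETS and 1 YY1 core, and that of Mrps18c 1 ETS core beside 1 E-box; those of Mrpl47 and Mrpl40 held none of the 4.

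**Figure D1:**
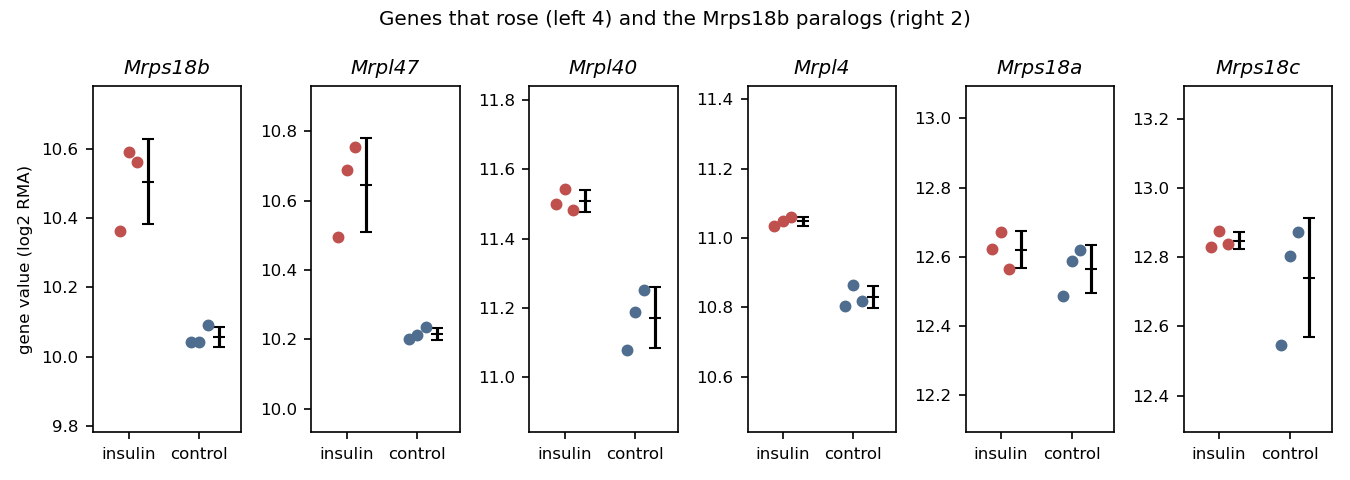
Log2 level of the 4 genes that rose and of Mrps18a and Mrps18c on each of the 3 insulin and 3 control arrays (points), with the group mean and SD beside them. The insulin arrays of Mrps18b, Mrpl47, Mrpl40 and Mrpl4 all lie above their control arrays, whereas those of Mrps18a and Mrps18c overlap with them; each panel has its own y range.

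Each of the genes that rose was read by several probe sets, so their changes could be compared. For Mrps18b, 5 of 5 probe sets were higher with insulin, by 0.38 to 0.71 on the log2 scale, and 3 of them passed the test over all probe sets. Of these 3, 1 gave the gene's median on all 6 arrays and is no separate reading. The probe set with the change of 0.71 did not pass. It was at 9.857, 10.032 and 9.74 with insulin, against 8.665, 9.168 and 9.67 in controls, which were thus not close together. For Mrpl47, 13 of 13 were higher, by 0.25 to 0.78, of which 1 passed. The change of 0.78 was that of a probe set with a mean of 5.44, which failed the level filter and was not tested. The probe set that passed gave the gene's median on all 6 arrays. It is thus no separate reading, and the close controls of Mrpl47 are those of this 1 probe set. All 4 probe sets of Mrpl40 were higher too, by 0.048 to 0.44, and the brightest of them had the change of 0.048 and a limma adjusted p of 0.626. Mrpl4 was mixed, with 7 of 10 probe sets higher and changes from -0.24 to 0.31. Of the 435 member probe sets, 415 passed the filter, of which 5 rose and 0 fell, against 3.95% and 1.71% of all tested probe sets. The 5 lay in 3 genes, namely Mrps18b, Mrpl47 and Mrpl19.

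**Figure D2:**
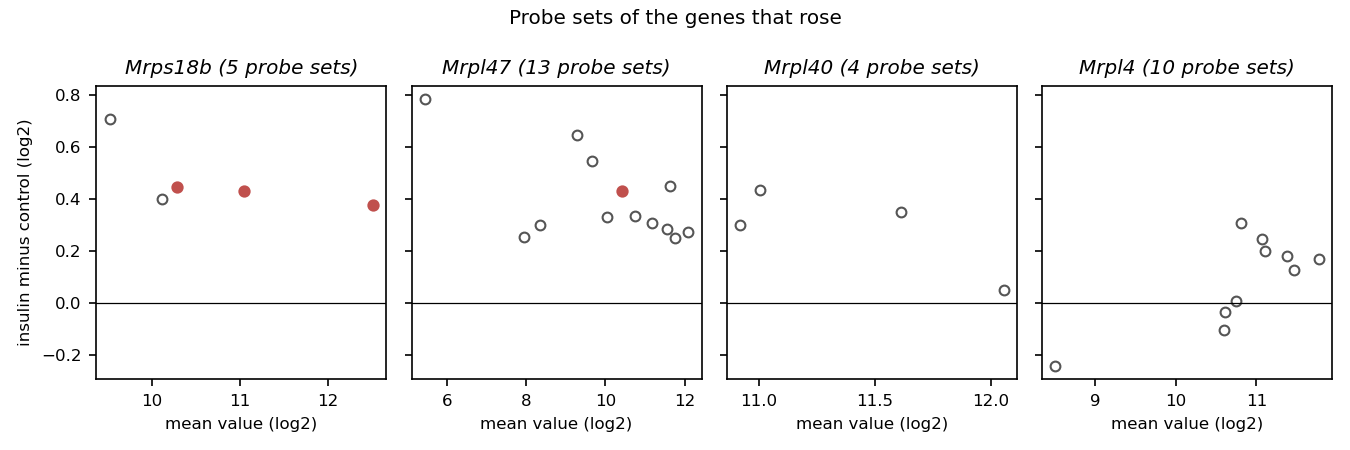
Change of each probe set (insulin minus control, log2) against its mean log2 value for the 4 genes that rose, 1 point per probe set, filled where the adjusted p was under 0.05. The probe sets of Mrps18b, Mrpl47 and Mrpl40 all lie above 0, and 3 of the 10 of Mrpl4 lie below it.

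Outside these 4, most changes were small. The median change over the 74 members was 0.067 on the log2 scale, against -0.003 over all tested genes, and the median size of change regardless of sign was 0.074, against 0.12. For 41 of the 74 members the change lay within 0.1 of 0, and for 13, the 4 that rose among them, it was above 0.2. The 95% interval of the limma fit lay inside 1.5-fold in either direction for 70 of 74 members; the exceptions were Mrps18b, Mrpl47, Mrpl20 and Mrps11, whose upper limits lay beyond it. The median SE was 0.074 for members and 0.083 for all tested genes.

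The small changes leaned one way. The change was positive for 62 of 74 members (83.8%), against 49.4% of all tested genes. With arrays centred on their medians it was positive for 56 (75.7%), against 44.9% of all tested genes in that setting. At an unadjusted p under 0.05, 13 members were higher and 1 was lower, together 18.9% of the members, against 29.9% of all tested genes (16.7% higher and 13.2% lower). The insulin arrays lay wholly above the controls for 21 members and wholly below for 3, which is 28.4% and 4.05%, against 20.0% and 15.7% of all tested genes (35.7% in all). The members share the same 6 arrays and are not independent of each other, so these counts are a description.

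The lean was smaller without control 1. That array had the lowest level of the 6 arrays for 42 of 74 members (56.8%), against 27.8% of all tested genes, and insulin 2 had the highest for 34, against 17.6% of all tested genes. The mean level over the members was 11.34, 11.41 and 11.36 on the insulin arrays, against 11.19, 11.30 and 11.33 on the control arrays. Without control 1 the change was positive for 53 members (71.6%), with a median of 0.043. Over the 17 alternatives, this setting among them, 42.2% to 53.0% of all tested genes had a positive change. Without control 1, 3 members rose (4.05%), against 8.19% of all tested genes in that setting. Control 1 was also the array with the highest mean of the myotube markers, and the part of that in the result was not tested.

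**Figure D3:**
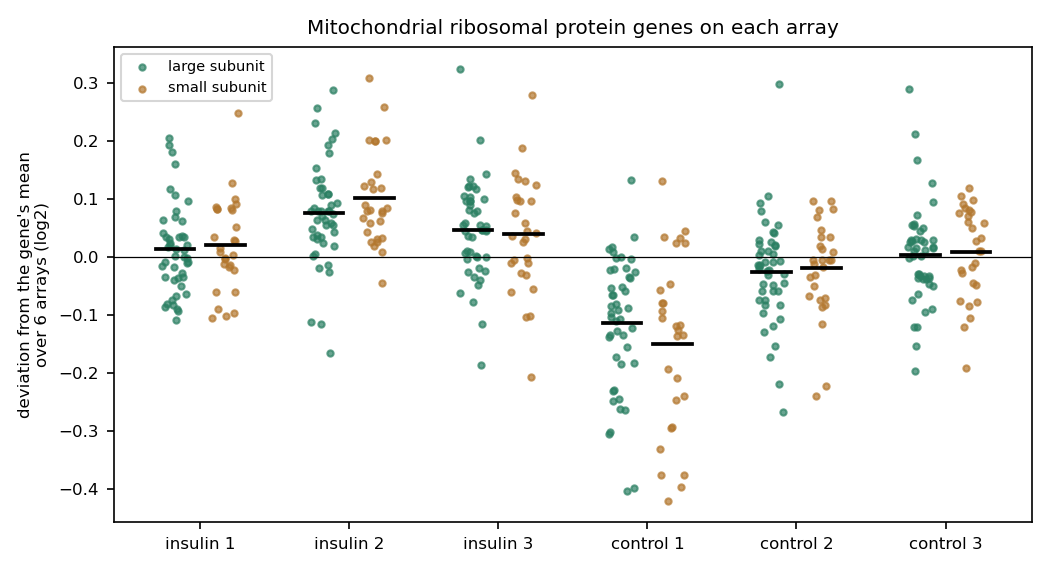
Deviation of each member from its own mean over the 6 arrays (log2), by array and subunit, with 1 point per gene and a bar at the mean. Members on control 1 sit lowest, with a mean deviation of -0.11 for the large and -0.15 for the small subunit.

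The number of members that rose depended on single arrays as well. It was 2, 1 and 2 without insulin replicate 1, 2 and 3, and 3, 2 and 7 without control replicate 1, 2 and 3, with 1 fall, of Mrpl53, in the last case. With array quality weights 12 rose and 1 fell, and with probe sets averaged 9 rose. In each of the 17 alternatives the share of members that rose was below that of all tested genes that rose in the same setting.

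Each subunit had few calls. Of 46 large subunit genes 3 rose (6.52%) and 0 fell, with a median change of 0.066 and a positive change for 40. Of 28 small subunit genes 1 rose (3.57%) and 0 fell, with a median of 0.093 and a positive change for 22. Both shares lay below the 9.56% of all tested genes called higher, while 49.4% of all tested genes had a positive change. Without control 1 the median was 0.043 for the large and 0.047 for the small subunit, with a positive change for 35 and 18 genes. The mean level over large subunit genes was 11.40, 11.47 and 11.44 on insulin arrays, against 11.28, 11.36 and 11.39 on control arrays. Over small subunit genes it was 11.23, 11.31 and 11.25, against 11.06, 11.19 and 11.21. The difference between the 2 subunit means was 0.18, 0.16 and 0.19 on insulin arrays and 0.22, 0.18 and 0.18 on control arrays, so the groups overlapped. Moving Mrps18a and Mrps30, which the structure places in the large subunit, and leaving out Mrps36, left 3 of 48 and 1 of 25 with a rise.

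**Figure D4:**
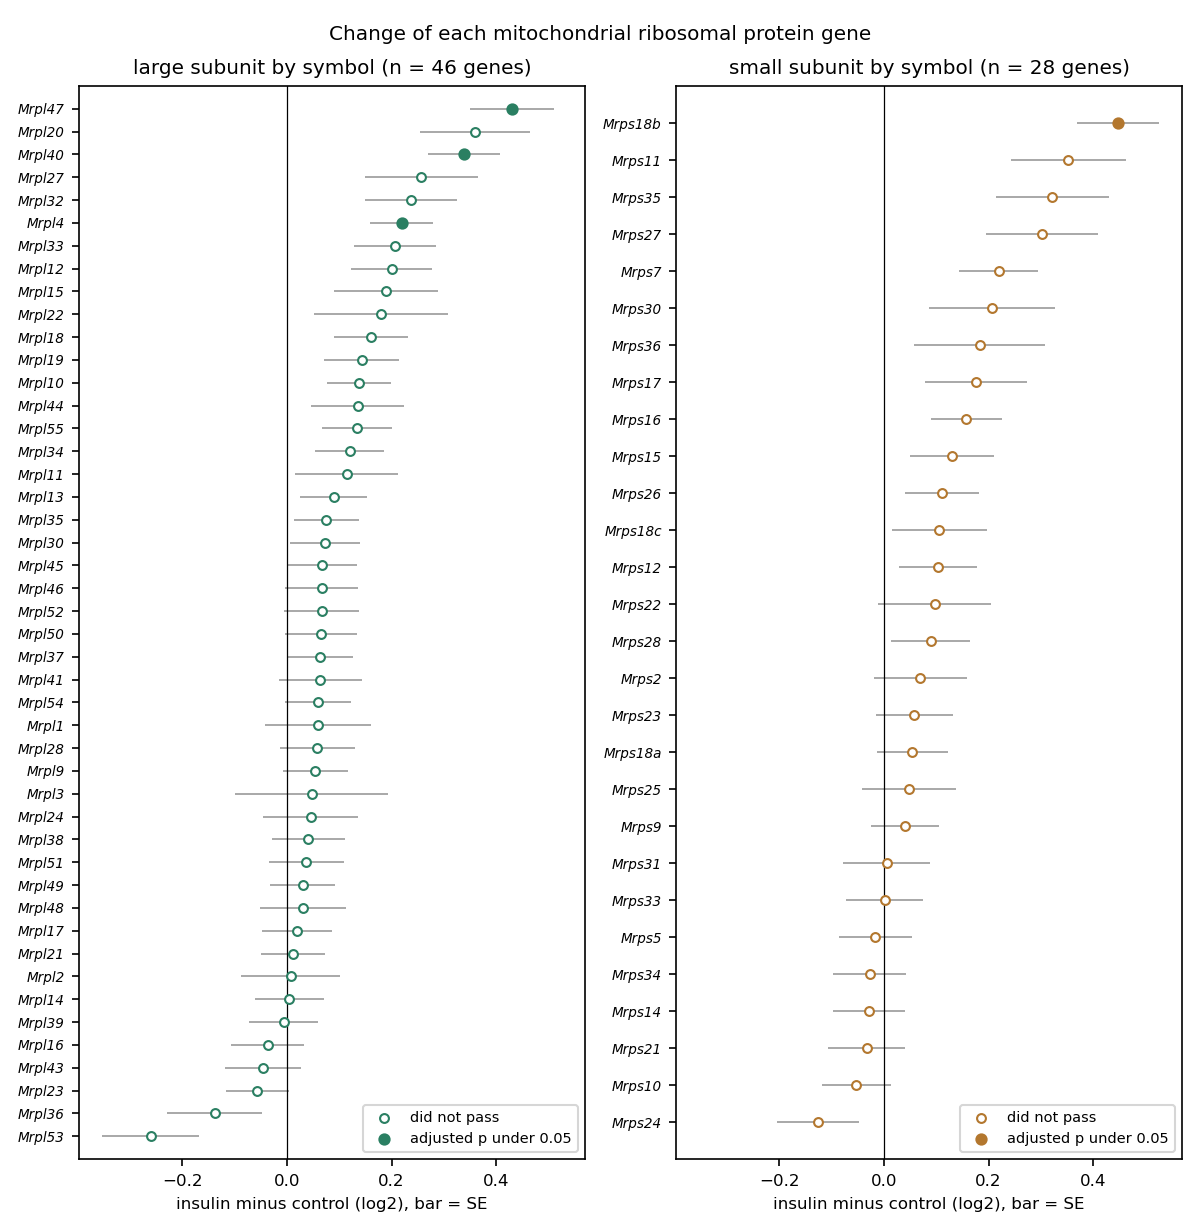
Change of every member (insulin minus control, log2) by subunit, with the limma SE as a bar and the 4 genes that passed filled. Changes run from -0.26 to 0.43 in the large and from -0.13 to 0.45 in the small subunit.

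By descent, of 45 homologues of bacterial ribosomal proteins 2 rose (4.44%), with a median change of 0.089, and of 26 proteins found only in mitochondria 1 rose (3.85%), with a median of 0.061, against 9.56% of all tested genes called higher. Without control 1 these medians were 0.066 and 0.023. The other call, Mrps18b, belongs to a duplicated bacterial family.

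The stalk of the large subunit recruits the translation factors and was represented by 5 genes. None of them passed, against 15.9% of all tested genes called, but 5 genes are too few to show a lower share. Their median change was 0.11, and 0.062 without control 1. Mrpl12, the protein that stands in several copies in the stalk and which also binds the mitochondrial RNA polymerase, had log2 levels of 11.89, 12.12 and 11.999 with insulin, against 11.82, 11.84 and 11.75 in controls. The insulin arrays lay above the controls, yet the change of 0.20 ± 0.08 (SE) had a limma adjusted p of 0.123. It passed with probe sets averaged or centred, at limma adjusted p-values of 0.034 and 0.0327. Mrpl53, a mitochondria-specific protein at the stalk base that 1 probe set reads, had the most negative change of all members, with log2 levels of 8.03, 8.001 and 7.93 with insulin, against 8.25, 8.41 and 8.08 in controls. Its change of -0.26 ± 0.09 (SE) did not pass (limma adjusted p = 0.0966).

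Around the peptidyl transferase centre, where amino acids are joined, none of 4 genes passed and the median change was 0.027. Of all tested genes 15.9% were called, and 4 genes are too few to show a lower share. Mrpl3, in which human mutations cause a mitochondrial cardiomyopathy, had log2 levels of 10.06, 9.74 and 9.83 with insulin, against 9.76, 9.58 and 10.14 in controls. The groups overlapped, and its 15 probe sets ran from -0.59 to 0.33. Elsewhere in the large subunit, Mrpl44, likewise tied to human cardiomyopathy, was at 10.58, 10.68 and 10.58 with insulin, against 10.30, 10.53 and 10.60 in controls, a change of 0.14 ± 0.09 (SE, limma adjusted p = 0.362). Without control 1 its change was 0.047.

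At the exit tunnel, 2 of 7 genes (28.6%) rose, Mrpl47 and Mrpl4, against 9.56% of all tested genes called higher, and the call of Mrpl4 was the one lost in most alternatives. The median change of the 7 was 0.067, and 0.024 without control 1. Mrpl23, which also sits at the tunnel mouth and was among the brightest members, was at 12.84, 12.84 and 12.81 with insulin, against 12.85, 12.90 and 12.90 in controls. All insulin arrays were below all controls, but the change of -0.057 ± 0.060 (SE) did not pass (limma adjusted p = 0.581). Of 5 central protuberance genes Mrpl40 alone passed, and the median was 0.066.

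Mrpl20, whose bacterial homologue is needed early in large subunit assembly, had the largest change among members that missed the threshold. It was at 11.35, 11.52 and 11.37 with insulin, against 10.83, 11.13 and 11.20 in controls, a change of 0.36 ± 0.11 (SE) with a limma adjusted p of 0.0528. The groups did not overlap and control 1 was the lowest array. Mrpl20 passed under 8 of the 17 alternatives. Of the other bright large subunit genes, Mrpl14 had a change of 0.004 ± 0.066 and Mrpl21 one of 0.011 ± 0.061 (SE), with limma adjusted p-values of 0.976 and 0.925.

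Of 5 genes assigned to the platform of the small subunit, 1 rose, against 9.56% of all tested genes called higher. That gene was Mrps18b, whose own place in the structure was not checked. The median change of the 5 was 0.13, or 0.066 without control 1. Mrps11, also assigned to the platform, was at 10.74, 10.92 and 10.85 with insulin, against 10.24, 10.63 and 10.59 in controls. Its change of 0.35 ± 0.11 (SE) was the next largest that missed the threshold, with a limma adjusted p of 0.0686, and control 1 was again the lowest array. Without that array its change was 0.23, and it passed under 7 of the 17 alternatives. In the head, 8 genes had a median change of 0.003, or -0.055 without control 1. None passed, against 15.9% of all tested genes called, but 8 genes are too few to show a lower share. Mrps35, a mitochondria-specific head protein, was at 10.50, 10.35 and 10.40 with insulin, against 9.92, 10.03 and 10.33 in controls, a change of 0.32 ± 0.11 (SE, limma adjusted p = 0.0827), which passed under 4 of the 17 alternatives. Mrps14, another head protein, had a change of -0.029 ± 0.069 (SE, limma adjusted p = 0.823).

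In the decoding region and body, 8 genes had a median change of 0.11 and none passed. Of all tested genes 15.9% were called, and 8 genes are too few to show a lower share. Mrps12, the homologue of the bacterial protein that guards decoding accuracy, was at 11.39, 11.57 and 11.55 with insulin, against 11.37, 11.36 and 11.46 in controls, a change of 0.10 ± 0.07 (SE, limma adjusted p = 0.399). Mrps16, in which human mutations cause a fatal respiratory chain deficiency, was at 11.70, 11.83 and 11.80 with insulin, against 11.56, 11.68 and 11.61 in controls. Its insulin arrays lay above all controls, with a change of 0.16 ± 0.07 (SE, limma adjusted p = 0.169). Mrps22, another human disease gene, overlapped, at 11.39, 11.38 and 11.27 with insulin, against 11.01, 11.40 and 11.35 in controls, with a change of 0.097 ± 0.108 (SE, limma adjusted p = 0.602), and one of -0.025 without control 1.

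Of the relatives of bacterial S18, only Mrps18b passed. Mrps18a was at 12.62, 12.67 and 12.57 with insulin, against 12.49, 12.59 and 12.62 in controls, a change of 0.054 ± 0.068 (SE, limma adjusted p = 0.648). Mrps18c was at 12.83, 12.88 and 12.84 with insulin, against 12.55, 12.80 and 12.87 in controls, a change of 0.11 ± 0.09 (SE, limma adjusted p = 0.489). Without control 1 these changes were 0.015 and 0.009. The change of Mrps18b exceeded that of Mrps18a by 0.39 and that of Mrps18c by 0.34, while Mrps18c exceeded Mrps18a by 0.052. A two-sided exact permutation test over the 6 arrays gave p = 0.1 (adjusted over 3 pairs 0.15), p = 0.1 (0.15) and p = 0.6 (0.6); 0.1 is the smallest p this design can give. 

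Mrps30 and Mrps36 carry small subunit names but are placed elsewhere, and for both the groups overlapped. Mrps30, which lies in the large subunit, was at 10.32, 10.51 and 10.40 with insulin, against 9.93, 10.27 and 10.40 in controls, a change of 0.21 ± 0.12 (SE, limma adjusted p = 0.302). Mrps36, now known as a subunit of the oxoglutarate dehydrogenase complex, was at 10.94, 11.05 and 10.84 with insulin, against 10.48, 10.85 and 10.96 in controls, a change of 0.18 ± 0.13 (SE, limma adjusted p = 0.377). Control 1 was the lowest array for both, and without it the changes were 0.072 and 0.042.

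A promoter window was found for 65 of 74 members. The ETS core occurred in 24 of them (36.9%), against 17.6% of 9737 tested genes with a window and 9.93% of all 27025 genes with one. The NRF1 core occurred in 8 (12.3%), against 5.42% and 3.05%, and the YY1 core in 7 (10.8%), against 3.09% and 1.64%. The E-box occurred in 5 (7.69%), against 11.3% and 8.09%. By subunit, the ETS core was in 13 of 40 large and 11 of 25 small subunit windows, and the NRF1 core in 7 of 40 and 1 of 25. Members with an ETS core had a median change of 0.082 and those without 0.065; for the NRF1 core these were 0.16 and 0.065, for YY1 0.064 and 0.066, and for the E-box 0.064 and 0.066. These matches describe letters in a window and say nothing of binding.

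The genes that build and serve the mitochondrial ribosome were read beside its proteins, and their counts stand against 9.56% of all tested genes called higher, 6.35% called lower and 49.4% with a positive change. Of 6 mitoribosomal proteins with other symbols none passed, with a median change of 0.12. Dap3, a small subunit GTP-binding protein, had a change of 0.21 (limma adjusted p = 0.0882), and Mrp63, the present Mrpl57, one of -0.22 (0.0894). Of 26 assembly factor genes 1 rose (3.85%) and 0 fell, and 23 had a positive change, with a median of 0.11. Without control 1 a positive change was left for 17 of them, with a median of 0.084. The riser was Wbscr16, now Rcc1l, at 9.51, 9.62 and 9.65 with insulin, against 9.04, 9.24 and 9.19 in controls, a change of 0.44 ± 0.08 (SE, limma adjusted p = 0.00908).

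Of 21 mitochondrial translation factor genes 2 rose (9.52%, against 9.56% of all tested genes) and 0 fell, with a median of 0.14. Gatc, part of the amidotransferase that completes the glutamine tRNA, was at 10.47, 10.43 and 10.55 with insulin, against 10.03, 10.09 and 10.11 in controls, a change of 0.40 ± 0.07 (SE, limma adjusted p = 0.00623). Tsfm, an elongation factor, was at 11.28, 11.39 and 11.32 with insulin, against 11.02, 11.10 and 11.09 in controls, a change of 0.26 ± 0.07 (SE, limma adjusted p = 0.0308). Without control 1 the median of the list was 0.054 and 1 gene rose, and without control 2, insulin 1, insulin 2 or insulin 3 also 1 gene rose. Of 18 genes of mitochondrial transcription and RNA handling 1 rose (5.56%) and 0 fell, with a median of 0.089 and a positive change for 15. This was Supv3l1, a mitochondrial RNA helicase, with a change of 0.42 ± 0.07 (SE, limma adjusted p = 0.00819). Without control 1 the median of this list was 0.037, with a positive change for 10. The mean deviation of these 3 lists on control 1 was -0.18, -0.16 and -0.20, against -0.11 and -0.15 for large and small subunit genes. Without control 3, 4 of 26 assembly factor genes and 2 of 18 transcription genes rose, against 10.4% of all tested genes in that setting.

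Among 15 tested regulators of growth and mitochondrial biogenesis 2 rose and 1 fell, which is 13.3% and 6.67%, against 9.56% and 6.35% of all tested genes. Myc, a factor that drives ribosome production, rose by 0.67 ± 0.07 (SE, limma adjusted p = 0.00109), Atf4, a stress and amino acid response factor, rose by 0.35 (0.0195), and Mtor, the growth kinase, fell by 0.33 (0.0367).

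The products of the mitochondrial ribosome and their partners were read last. Of 7 mitochondrially encoded genes none passed, with changes from -0.070 to 0.086 and a median of -0.042. Of 81 nuclear genes whose symbols are those of respiratory chain and ATP synthase subunits 1 rose (1.23%) and 2 fell (2.47%), against 9.56% and 6.35% of all tested genes, and 24 had a positive change, with a median of -0.046. The symbols took in Cox4nb, now Emc8, a protein of the endoplasmic reticulum; the 80 others gave the same calls and a positive change for 23. The falls were of Cox8b and Cox6a2, the muscle forms of cytochrome oxidase subunits, by 0.44 (limma adjusted p = 0.00364) and 0.37 (0.0161). The count of falls was 1 without control 2, insulin 1 or insulin 2, and the rise was lost without control 1, control 2, insulin 2 or insulin 3. Of 71 genes with symbols of cytosolic ribosomal proteins 2 rose (2.82%) and 1 fell (1.41%), with a median change of 0.039 and a positive change for 50. These took in Rps19bp1, which binds a ribosomal protein, and the pseudogene Rpl32-ps; the 69 others had the same counts of calls, the same median and a positive change for 49. The fall was lost on leaving out any array but control 1, and without control 1 the median was 0.016. The difference between these lists and the mitochondrial ribosomal proteins was not tested.

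**Figure D5:**
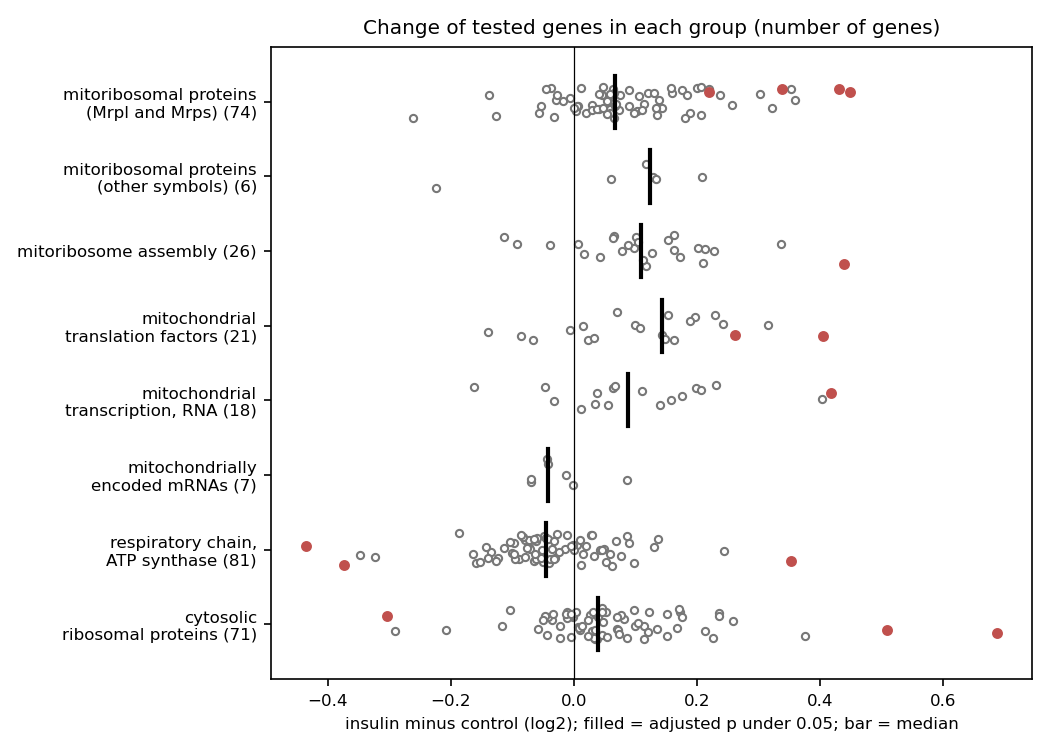
Change of each gene (insulin minus control, log2) in the mitochondrial ribosomal proteins and the comparison lists, 1 point per gene, filled where the adjusted p was under 0.05, and a bar at the median. The medians run from -0.046 for the respiratory chain to 0.14 for the translation factors, and the lists overlap.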

How the data were processed

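RNA of 6 cultures was amplified and read on 1 array each. The authors deposited log2 values per probe set, made with RMA per the submitters' processing notes. No source used here gives the log base; values from 3.15 to 14.6 were taken to be base 2. RMA equalizes the arrays, so a change is relative to other transcripts. GEO's platform annotation named the 241576 probe sets: 212097 had 1 symbol, 4475 several and 25004 none. A gene's value was the median of its single-symbol probe sets.

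Genes with a mean under the 30th percentile (7.05) were dropped, and 14291 were tested with limma 3.58.1 in R 4.3.3 (lmFit, eBayes, insulin minus control, two-sided, no covariates), adjusted by Benjamini-Hochberg over all tested genes at 0.05. Probe sets were fitted likewise. The fit was tested on simulated data. SDs span the 3 arrays of a group. Permutation tests used scipy 1.17.1. Promoters came from RefSeq, GRCm38.p6.

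Members and lists were chosen with earlier results of these data known, and the list of mitochondrially encoded genes was added after the files were seen. Named members are those that passed, the 3 largest changes that did not, the 3 brightest of each subunit and 11 others set by name; of each list at most the 3 smallest unadjusted p-values. Mrpl53, Mrpl33, Mrpl19 and Mrps5 were chosen after their values were seen, as were symbol lists without Cox4nb, Rps19bp1 and Rpl32-ps. Alternatives were the replicate block, repeated quantile normalization, centred arrays, other filters, an intensity trend, array weights, other summaries of probe sets, subunits by structure, a 1.2-fold minimum, and leaving out each array. Over all genes, arrays with the same replicate number correlated in their deviations at 0.025, 0.195 and 0, so the numbers were not taken to pair the cultures. No batch or scan date was known.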

Additional observations from a re-analysis of the deposited data

How the results depend on the processing

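The number of members that rose was 4, and 12 with array quality weights, 7 with an intensity trend and robust prior, 9 with probe sets averaged, and 10 with each probe set centred before the median, an alternative added after seeing the data. It ran from 1 to 7 when 1 array was left out. Members that fell numbered 0, and 1 with array weights or centred probe sets, with a range of 0 to 1 on leaving out an array; that gene was Mrpl53 and belongs to the large subunit, so the same counts hold there. Large subunit genes that rose numbered 7 with array weights, 1 with the brightest probe set, 5 with the mean and 5 with centred probe sets, and 0 to 4 without 1 array. Small subunit genes that rose numbered 5 with array weights, 3 with the brighter probe sets alone, 3 with the brightest, 2 with a filter at the 50th percentile, 3 with the trend, 4 with the mean, 5 with centred probe sets, and 1 to 3 without 1 array. Of all tested genes, 10.6% rose with the brighter probe sets, 6.42% with the brightest, 13.7% with the mean and 15.4% with centred probe sets. The small subunit share lay above each of these, and above the 10.4% without control 3. It lay below the 18.2% with array weights, the 14.3% with the 50th percentile filter and the 11.1% with the trend. With the replicate number as a block, 5 members rose, 2 of them small subunit genes: Mrpl20 and Mrps11 passed and Mrpl4 did not. The other settings gave 3 to 6 members that rose. The share of members with a positive change lay between 71.6% and 87.8% over the 17 alternatives, against 42.2% to 53.0% of all tested genes. Changes near 0 turned sign. Mrpl14 was at 0 with array weights, -0.017 with centred arrays, -0.002 with the brighter ones alone, -0.009 with the brightest or with centred probe sets, -0.011 with the mean, and -0.018 to 0.047 without 1 array. Mrpl21 was at -0.009 with centred arrays, -0.019 with the brighter ones alone, -0.035 with the brightest, -0.007 with centred probe sets, and -0.009 to 0.031 without 1 array. Mrpl3 was at -0.004 with the brighter ones alone and -0.076 to 0.203 without 1 array. Mrps14 was at 0.011 with the brighter ones alone or centred probe sets, 0.014 with the mean, and -0.060 to 0.012 without 1 array. Mrps18c was at -0.039 with the brighter ones alone. Mrps22 was at -0.025 with array weights and -0.025 to 0.170 without 1 array. The cause of these shifts was not tested. With 3 arrays a group, no detection calls and amplified RNA, changes near the median SE of 0.074 were not resolved for single genes.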

Other observations

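Mrps5, a small subunit protein with a bacterial homologue, had a change of -0.017 ± 0.070 (SE, limma adjusted p = 0.896) as the median of its probe sets, although 10 of its 11 probe sets were higher with insulin, with changes from -0.027 to 0.68. With the mean of the probe sets its change was 0.25 (limma adjusted p = 0.00858), and with each probe set centred first it was 0.24 (0.00894). Mrpl19, a large subunit protein, had 1 probe set that rose, by 0.39 (limma adjusted p = 0.0371), and 6 of its 6 probe sets were higher, while the gene did not pass as the median of them (change 0.14, limma adjusted p = 0.232). With the mean of the probe sets its change was 0.22 (limma adjusted p = 0.027), and with each centred first 0.21 (0.0197).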
